A study of Mus musculus with 93 samples.

Results

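The genes described are 10 targets of bone morphogenetic protein (BMP) signalling, Id1, Id2, Id3, Id4, Smad6, Smad7, Smad9, Msx1, Msx2 and Bambi, listed by name and not by a threshold on their values. All 10 were found among the 24514 gene symbols of the deposited table. They were measured in 93 RNA-seq libraries of 10 sorted mouse cells each. GFP+ cells carry the Hcn4-GFP reporter, which marks first heart field cells, and RFP+ cells carry the Ai9 label that Tbx1-Cre leaves in cells of the second heart field and pharyngeal mesoderm and in their descendants. All 4 groups carry the 3 alleles Hcn4-GFP, Tbx1-Cre and Ai9. The in vivo groups were 5 GFP+ and 4 RFP+ libraries from embryos, which the titles place at E8.5 and the protocol at E7.75. The in vitro groups came from spheroids at day 5.5 and held 38 libraries of GFP+ and 46 of RFP+ cells. The spheroids were grown from an embryonic stem cell line derived from blastocysts of the same cross, which is a single line. The methods name Activin A, Bmp4 and Wnt proteins, in various combinations, as the factors that induced spheroids; which of these the sequenced spheroids received, and at what dose, is not given in the sources used here.

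In BMP signalling, ligands such as Bmp4 bring type I and type II serine/threonine kinase receptors together, and the activated receptors phosphorylate Smad1, Smad5 and Smad9, which enter the nucleus with Smad4 and bind target genes. The Id genes are direct targets in many cell types. Their proteins have a helix-loop-helix domain without a DNA-binding region and hold back E proteins and other basic helix-loop-helix factors. Smad6 and Smad7, the inhibitory Smads, and Bambi, a receptor-like membrane protein without a kinase domain, are induced by the pathway and dampen it. Msx1 and Msx2 are homeobox transcription factors that respond to BMP in many embryonic tissues. In the early embryo, BMP from neighbouring endoderm and ectoderm is needed for the heart to form.

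The start regions of Id2, Id3 and Msx2 are shown because Id2 and Id3 differed in opposite directions between the populations and Msx2 had the largest fitted difference in vitro of the 6 members tested there. They are RefSeq promoters of build GRCm38.p6, each from 250 bases before to 50 bases after the annotated start, 5′ to 3′ on the gene's strand, at chr12:25096043-25096342 (minus strand), chr4:136143572-136143871 (plus strand) and chr13:53472731-53473030 (minus strand). Capitals mark GGCGCC, the GC-rich sequence bound by Smad1 and Smad5, and GTCT or its reverse complement AGAC, the core bound by Smad4.
Id2: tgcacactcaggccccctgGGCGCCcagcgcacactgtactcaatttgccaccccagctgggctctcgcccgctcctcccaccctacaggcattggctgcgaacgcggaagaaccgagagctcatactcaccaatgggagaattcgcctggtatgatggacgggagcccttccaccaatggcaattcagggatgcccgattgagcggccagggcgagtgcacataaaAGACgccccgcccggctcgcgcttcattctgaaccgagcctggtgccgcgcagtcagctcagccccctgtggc
Id3: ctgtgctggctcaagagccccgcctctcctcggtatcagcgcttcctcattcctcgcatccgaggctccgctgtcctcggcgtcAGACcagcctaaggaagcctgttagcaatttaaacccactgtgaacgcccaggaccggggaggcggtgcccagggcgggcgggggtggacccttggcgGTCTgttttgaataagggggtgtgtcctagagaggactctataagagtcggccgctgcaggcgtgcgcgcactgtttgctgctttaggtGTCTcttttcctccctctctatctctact
Msx2: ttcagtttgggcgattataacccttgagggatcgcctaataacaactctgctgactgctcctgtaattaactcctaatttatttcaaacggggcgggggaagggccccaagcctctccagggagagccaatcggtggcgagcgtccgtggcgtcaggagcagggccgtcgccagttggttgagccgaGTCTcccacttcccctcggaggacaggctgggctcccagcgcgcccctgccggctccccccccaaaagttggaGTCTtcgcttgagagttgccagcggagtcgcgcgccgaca

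Promoters of 7 of the 10 genes were matched by symbol, those of Id2, Id3, Id4, Smad6, Smad9, Msx1 and Msx2. GGCGCC, which reads the same on both strands, was found in 3 of the 7, and 11.9% of 32851 promoters of this length held it. It lay 231 bases before the start in Id2, 148 bases before it in Id4 and 51 bases before it in Smad9. The 30 bases around each match, with the match in capitals, are shown for comparison of the flanks.
Id2, chr12:25096306-25096335, minus strand: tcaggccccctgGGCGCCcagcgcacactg
Id4, chr13:48260956-48260985, plus strand: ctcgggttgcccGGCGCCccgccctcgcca
Smad9, chr3:54755519-54755548, plus strand: gcacggccgcctGGCGCCcttccagcgcgg
GTCT on either strand was found in 5 of the 7, in Id3 at 3 places, in Smad6, Smad9 and Msx2 at 2 places each and in Id2 at 1, and 88.0% of all promoters held it. GGCGCC followed after 5 further bases by GTCT, searched on both strands, was in 0 of the 7 and in 0.0731% of all promoters. In the GENCODE M21 annotation of GRCm38, Id2 spans chr12:25093799-25097140, Id3 chr4:136143497-136145755, Id1 chr2:152736251-152737410 and Msx2 chr13:53466884-53473074, so that the RefSeq start used for Id2, Id3 and Msx2 lies inside the gene span of GENCODE. These matches describe the letters in the windows and say nothing about binding in these cells.

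The libraries differed in depth and in the number of genes detected. Totals ran from 712732 to 2525460 counted reads in the embryo GFP+ libraries, from 1246546 to 1479957 in the embryo RFP+ libraries, and from 445071 to 5658882 in the RFP+ spheroid libraries. The GFP+ spheroid libraries ran from 828193 to 4371849, apart from well C9 with 6288, where 1 read was worth 73.3 CPM (counts per 1000000 reads). Embryo GFP+ libraries had reads on 6189 to 8302 genes and embryo RFP+ libraries on 10263 to 13052, and the part of this difference in the zeros of weakly counted genes was not tested. Of the marker lists, 7 of 7 tested genes of the myocardium list were higher in GFP+ cells in vivo, and the summed level of that list ran from 16504 to 48985 CPM in GFP+ and from 779 to 1851 CPM in RFP+ embryo libraries. In spheroids its sum ran up to 963 CPM in GFP+ libraries (median 30.8) and up to 122 CPM in RFP+ libraries (median 42.7), and 2 of the 3 genes tested there, Ttn and Myl7, were higher in GFP+ cells, 9.92-fold and 2.72-fold. Nkx2-5, a defining heart marker, had reads in 2 of 38 GFP+ and 1 of 46 RFP+ libraries. Tbx1 had reads in 0 of 5 GFP+ and 3 of 4 RFP+ embryo libraries, and in 2 of 38 GFP+ and 41 of 46 RFP+ spheroid libraries. The summed endothelium list ran from 0 to 89.3 CPM in GFP+ embryo libraries, where Pecam1, Cdh5, Tie1 and Emcn were at 0 reads, and from 55.7 to 232 CPM in RFP+ embryo libraries. Tek, of the same list, had a higher mean in GFP+ embryo libraries, 29.8 against 14.7 CPM, with reads in 2 of 5. It was not called (edgeR adjusted p = 0.916), and its highest value was the whole of the 89.3 CPM. In spheroids the pluripotency list had a median of 149 CPM in GFP+ and 23.5 CPM in RFP+ libraries, with 4 of 4 tested genes higher in GFP+ cells. Of the endoderm list, Epcam, which other epithelial and stem cells also express, was higher in GFP+ spheroid cells (123 against 28.1 CPM on average), and Foxa2 was higher in RFP+ spheroid cells (9.05 against 2.28 CPM). In the embryo Epcam had 0 reads in GFP+ libraries and a mean of 64.2 CPM in RFP+ libraries. The summed neural list had medians of 0 CPM in GFP+ and 18.1 CPM in RFP+ embryo libraries. In spheroids its medians were 11.9 CPM in GFP+ and 33.8 CPM in RFP+ libraries. Of its 2 genes tested there, Pax3 was higher in RFP+ cells (23.8 against 1.91 CPM) and Sox2 was not called. The blood list stood apart in RFP+ embryo well F12, at 1154 CPM, while the other 3 RFP+ wells were at 0 and the GFP+ wells at no more than 1.07 CPM. The part of these cells in the differences of the BMP targets was not tested. Neither embryos nor differentiations are tied to wells in the labels or the methods, so n counts wells and p-values measure the spread between wells. The spheroid populations were sorted into different columns of the plate, so in vitro an effect of the column and one of the population cannot be told apart.

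All levels below are CPM after TMM scaling over the 93 libraries. Because each library holds a pool of cells, fewer cells with a transcript and less transcript per cell cannot be told apart. Per kb of exon, Id2, Id3 and Id1 were the most abundant members in all 4 groups. In embryo GFP+ cells Id2 led with 549 ± 83.0 CPM per kb (SD, n = 5), followed by Id3 with 129 ± 71.5 and Id1 with 72.8 ± 35.7, and the latter pair lay within their spread. In embryo RFP+ cells Id3 led with 424 ± 76.4 CPM per kb (SD, n = 4), followed by Id2 with 255 ± 53.7 and Id1 with 159 ± 43.1. In GFP+ spheroid cells the level of Id2 (163 ± 57.4 CPM per kb, SD, n = 38) lay within the spread of Id3 (141 ± 47.7) and above Id1 (92.6 ± 37.1). In RFP+ spheroid cells Id3 led with 218 ± 53.6 CPM per kb (SD, n = 46), and Id2 with 99.8 ± 35.8 lay within the spread of Id1 with 78.7 ± 23.0. Among the others Msx2 in GFP+ spheroid cells (9.28 ± 6.48 CPM per kb) and Bambi in embryo GFP+ cells (12.0 ± 14.3) had the highest group means. Smad6, Smad9, Id4 and Msx1 reached at most 2.37 CPM per kb, the mean of Smad6 in embryo GFP+ cells.

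**Figure D1:**
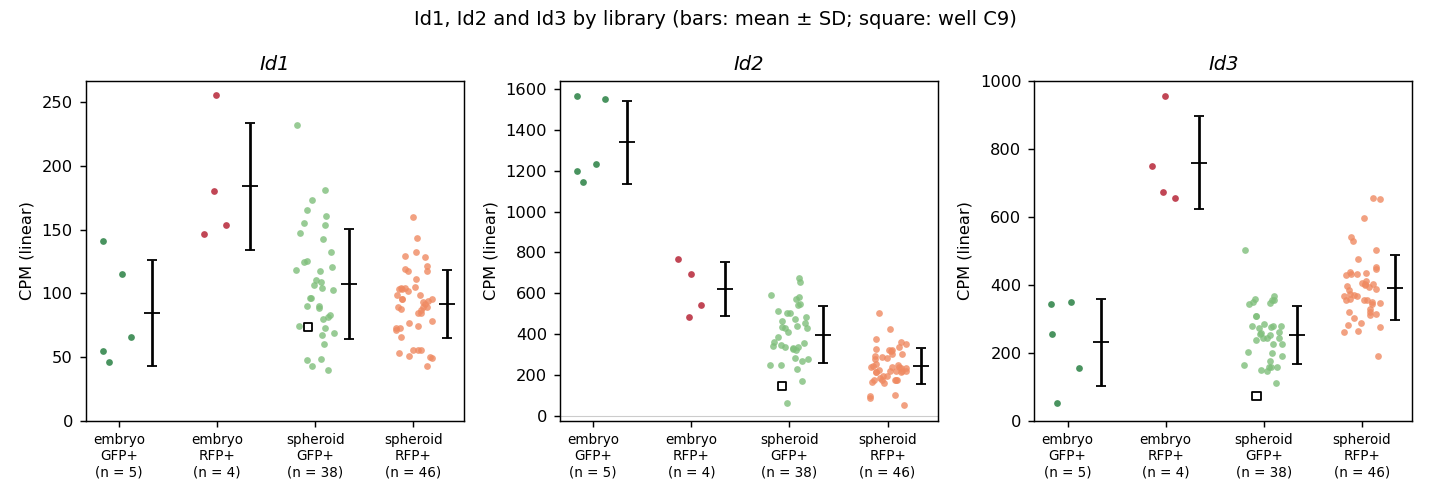
CPM of Id1, Id2 and Id3 (linear axes) in each library of the 4 groups; points are libraries, bars give the mean ± SD and the open square is well C9, which has 6288 reads. In the embryo the populations do not overlap for the 3 genes on this scale, with Id2 higher in GFP+ and Id1 and Id3 higher in RFP+ libraries. For Id1 they overlap when reads are scaled by totals alone. Over all genes tested in vivo, 13.7% had all RFP+ libraries above all GFP+ libraries and 3.6% the reverse.

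Id2 was more abundant in GFP+ cells of both sources. In the embryo its level was 1199, 1145, 1552, 1235 and 1563 CPM in the GFP+ wells A12, B12, C12, D12 and E12, and 485, 696, 766 and 542 CPM in the RFP+ wells F12, G11, G12 and H11. Each GFP+ library was above each RFP+ library, as for 3.6% of all genes tested in vivo. The fitted log2 difference, RFP+ minus GFP+, was -1.16 (SE 0.21, edgeR adjusted p = 0.0066), a 2.23-fold higher level in GFP+ cells, and the exact permutation test gave the smallest p it can reach, p = 0.0079. In the 5 GFP+ and 2 RFP+ libraries that share plate column 12 the ratio of means was 2.14. Without RFP+ well F12, which held globin reads, the log2 difference was -1.05 (edgeR adjusted p = 0.0229). In spheroids Id2 ran from 65.3 to 676 CPM in GFP+ libraries with a median of 398, and from 52.2 to 502 CPM in RFP+ libraries with a median of 234. The ranges overlapped, and 34 of 38 GFP+ libraries lay above the RFP+ median. The log2 difference was -0.77 (SE 0.11, edgeR adjusted p = 2.2e-09). The means of the 5 GFP+ plate columns, from 374 to 437 CPM, did not overlap those of the 6 RFP+ columns, from 224 to 270 CPM.

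Id3 differed in the opposite direction. In the embryo it stood at 344, 51.0, 154, 349 and 254 CPM in the GFP+ wells, in the order above, and at 675, 955, 751 and 656 CPM in the RFP+ wells. Again no library of the lower group reached the higher group, and GFP+ well B12 was the lowest of all. Of all genes tested in vivo, 13.7% had all RFP+ libraries above all GFP+ libraries. The log2 difference was 1.68 (SE 0.44, edgeR adjusted p = 0.030), 3.21-fold higher in RFP+ cells, with an exact permutation p = 0.0079. Without RFP+ well G11, the highest library, the difference was 1.57 with an edgeR adjusted p = 0.108, so that the call at 0.1 was not kept without that library. That fit called 613 genes over all, against 858 with all libraries. Without RFP+ well F12 it was 1.75 (edgeR adjusted p = 0.0590). Within plate column 12 the RFP+ mean was 3.09 times the GFP+ mean. In spheroids Id3 ran from 73.3 to 503 CPM in GFP+ libraries (median 255) and from 190 to 655 CPM in RFP+ libraries (median 378), and 45 of 46 RFP+ libraries lay above the GFP+ median. The log2 difference was 0.57 (SE 0.08, edgeR adjusted p = 2.0e-09). The GFP+ column means, from 221 to 277 CPM, lay below the RFP+ column means, from 340 to 451 CPM.

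Because Id2 and Id3 moved in opposite directions, their ratio of counts within a library, which needs no scaling, was also taken; it was chosen after the values were seen and is given as a description. In the embryo it was 3.48, 22.4, 10.1, 3.54 and 6.14 in the GFP+ wells and 0.718, 0.729, 1.02 and 0.826 in the RFP+ wells. In the spheroids the median ratio was 1.57 over 37 GFP+ libraries without well C9, of which 34 had more Id2 than Id3 reads, and 0.643 over 46 RFP+ libraries, of which 2 did. The ratio in GFP+ spheroid libraries, at most 3.00, stayed below its range in GFP+ embryo libraries.

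**Figure D2:**
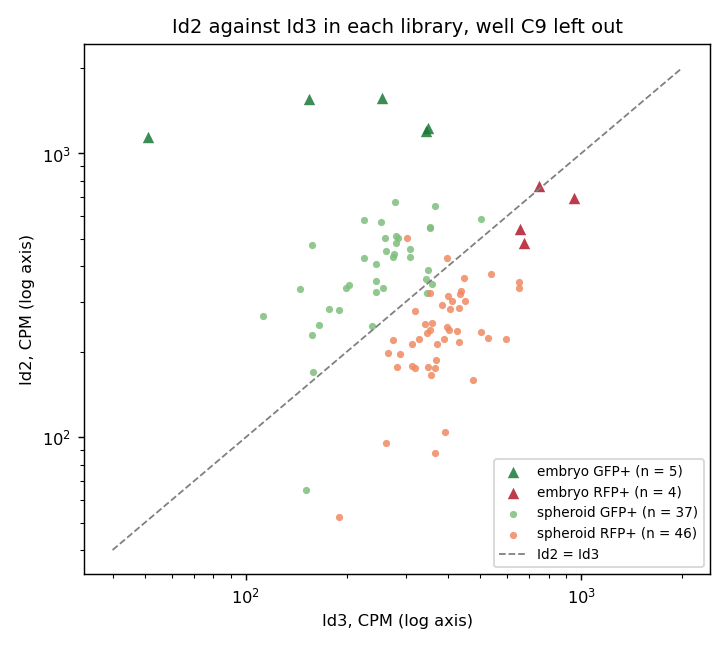
Id2 against Id3 in CPM (both axes log) for each library, with embryo libraries as triangles, spheroid libraries as circles and a dashed line at equal CPM; well C9 is left out. All 5 embryo GFP+ libraries lie above the line, and 34 of 37 GFP+ spheroid libraries against 2 of 46 RFP+ spheroid libraries do so.

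Id1 had its higher fitted level in RFP+ cells in the embryo and in GFP+ cells in spheroids. This difference between the sources was not called (adjusted p = 0.348, t test over separate edgeR fits). Its embryo values were 54.9, 45.9, 65.7, 115 and 141 CPM in the GFP+ wells and 180, 256, 147 and 153 CPM in the RFP+ wells, so that the groups did not overlap with TMM scaling. Scaled by total counts alone, GFP+ well E12 at 144 CPM lay above RFP+ well G12 at 140 CPM. The log2 difference of 1.07 (SE 0.53) was not called by edgeR (adjusted p = 0.370), while the exact permutation test of the 5 and 4 libraries, unadjusted, gave p = 0.0238. In spheroids Id1 was slightly lower in RFP+ cells, with a log2 difference of -0.28 (SE 0.11, edgeR adjusted p = 0.0151). There the ranges were 39.4 to 232 CPM in GFP+ and 42.8 to 160 CPM in RFP+ libraries, with medians of 103 and 92.5 CPM, and 22 of 38 GFP+ libraries lay above the RFP+ median. The permutation test on log2 CPM gave p = 0.117 for this difference, and the means of the plate columns of both populations overlapped. Id4, the fourth family member, had reads in 0 of 5 GFP+ and 1 of 4 RFP+ embryo libraries, where well G11 held 15 reads. In the GFP+ libraries 3 reads, the count that 0 reads still allows, corresponded to between 1.30 and 3.72 CPM. In spheroids 28 of 38 GFP+ and 17 of 46 RFP+ libraries had Id4 reads, with means of 2.93 ± 3.38 and 0.954 ± 1.55 CPM (SD), and the permutation test gave p = 0.00031. An exon of Id4 overlaps the antisense gene A330033J07Rik, and whether counting used the strand is not given in the sources used here.

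Msx2 showed the largest difference between the spheroid populations among the 6 members tested there. It ran from 0 to 106 CPM in GFP+ spheroid libraries with a median of 28.3, and from 0 to 15.02 CPM in RFP+ libraries with a median of 1.02. Reads were present in 37 of 38 GFP+ libraries, well C9 being the exception, and in 27 of 46 RFP+ libraries, and 37 GFP+ libraries lay above the RFP+ median while 0 RFP+ libraries lay above the GFP+ median. The log2 difference was -3.57 (SE 0.31, edgeR adjusted p = 2.9e-19), an 11.9-fold higher level in GFP+ cells. The GFP+ column means ran from 22.6 to 40.6 CPM and the RFP+ column means from 1.09 to 4.92 CPM. In the embryo Msx2 was at 25.8, 22.5, 0, 0 and 1.07 CPM in the GFP+ wells and at 20.4, 46.4, 21.1 and 3.58 CPM in the RFP+ wells. These groups overlapped, with 2 GFP+ wells at the level of the RFP+ wells and 3 at or near 0. The log2 difference of 1.19 (SE 1.65) was not called (edgeR adjusted p = 0.880), and the exact permutation test gave p = 0.167. Msx1 was close to absent: it had 1 read in 1 of 9 embryo libraries, reads in 22 of 38 GFP+ spheroid libraries at a mean of 0.735 ± 0.797 CPM, and 4 reads in 46 RFP+ spheroid libraries at a mean of 0.0528 ± 0.175 CPM. The permutation p for its spheroid difference was 1.0e-05, the smallest that 100000 resamples can give.

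Smad7 was higher in GFP+ spheroid cells. It ran from 0 to 22.4 CPM in GFP+ libraries with a median of 8.57, and from 0 to 12.2 CPM in RFP+ libraries with a median of 3.36. The log2 difference was -1.32 (SE 0.21, edgeR adjusted p = 2.0e-08), or 2.50-fold, and 34 of 38 GFP+ libraries lay above the RFP+ median. In the embryo 3 GFP+ wells, B12, D12 and E12, held 36.3, 65.4 and 37.4 CPM, while A12 and C12 were at 0, and the RFP+ wells held 5.83, 7.03, 0 and 7.88 CPM. With GFP+ libraries both above and below all RFP+ libraries with reads, the log2 difference of -2.43 (SE 1.74) was not called (edgeR adjusted p = 0.675; exact permutation p = 0.571). Smad6, the other inhibitory Smad, was at 0, 19.5, 12.4, 6.07 and 0 CPM in the GFP+ and at 3.64, 3.51, 0 and 11.5 CPM in the RFP+ embryo wells, and the groups overlapped. In spheroids it had reads in 26 of 38 GFP+ and 35 of 46 RFP+ libraries, with medians of 1.24 and 1.35 CPM and a permutation p = 0.811. A difference between the populations was not detectable for Smad6 at this depth, and whether the inhibitory Smads differ from each other in this was not tested.

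Bambi was also higher in GFP+ spheroid cells, with a median of 18.7 CPM (0 to 43.9) against 11.2 CPM (0.826 to 27.2) in RFP+ cells. The log2 difference was -0.80 (SE 0.17, edgeR adjusted p = 1.8e-05), and 32 of 38 GFP+ libraries lay above the RFP+ median. In the embryo Bambi ranged widely over the GFP+ wells, at 40.9, 182, 0, 13.1 and 69.5 CPM, around the narrow range of the RFP+ wells at 46.6, 33.0, 22.8 and 28.7 CPM. The log2 difference of -0.93 (SE 1.30, edgeR adjusted p = 0.887) was not called, and it became 0.06 without GFP+ well B12, while the difference of the means of log2 CPM was 0.42 in the other direction (exact permutation p = 0.817). Smad9, which encodes a receptor-activated Smad and is itself induced by BMP in several cell types, was counted in 1 of 5 GFP+ embryo libraries, at 19.6 CPM in well D12, and in 4 of 4 RFP+ embryo libraries, at 6.56, 0.703, 30.4 and 2.87 CPM (exact permutation p = 0.214). In spheroids the direction of its means was the other way, with reads in 23 of 38 GFP+ and 12 of 46 RFP+ libraries, means of 2.73 ± 4.15 and 0.735 ± 1.71 CPM (SD) and a permutation p = 0.0015.

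**Figure D3:**
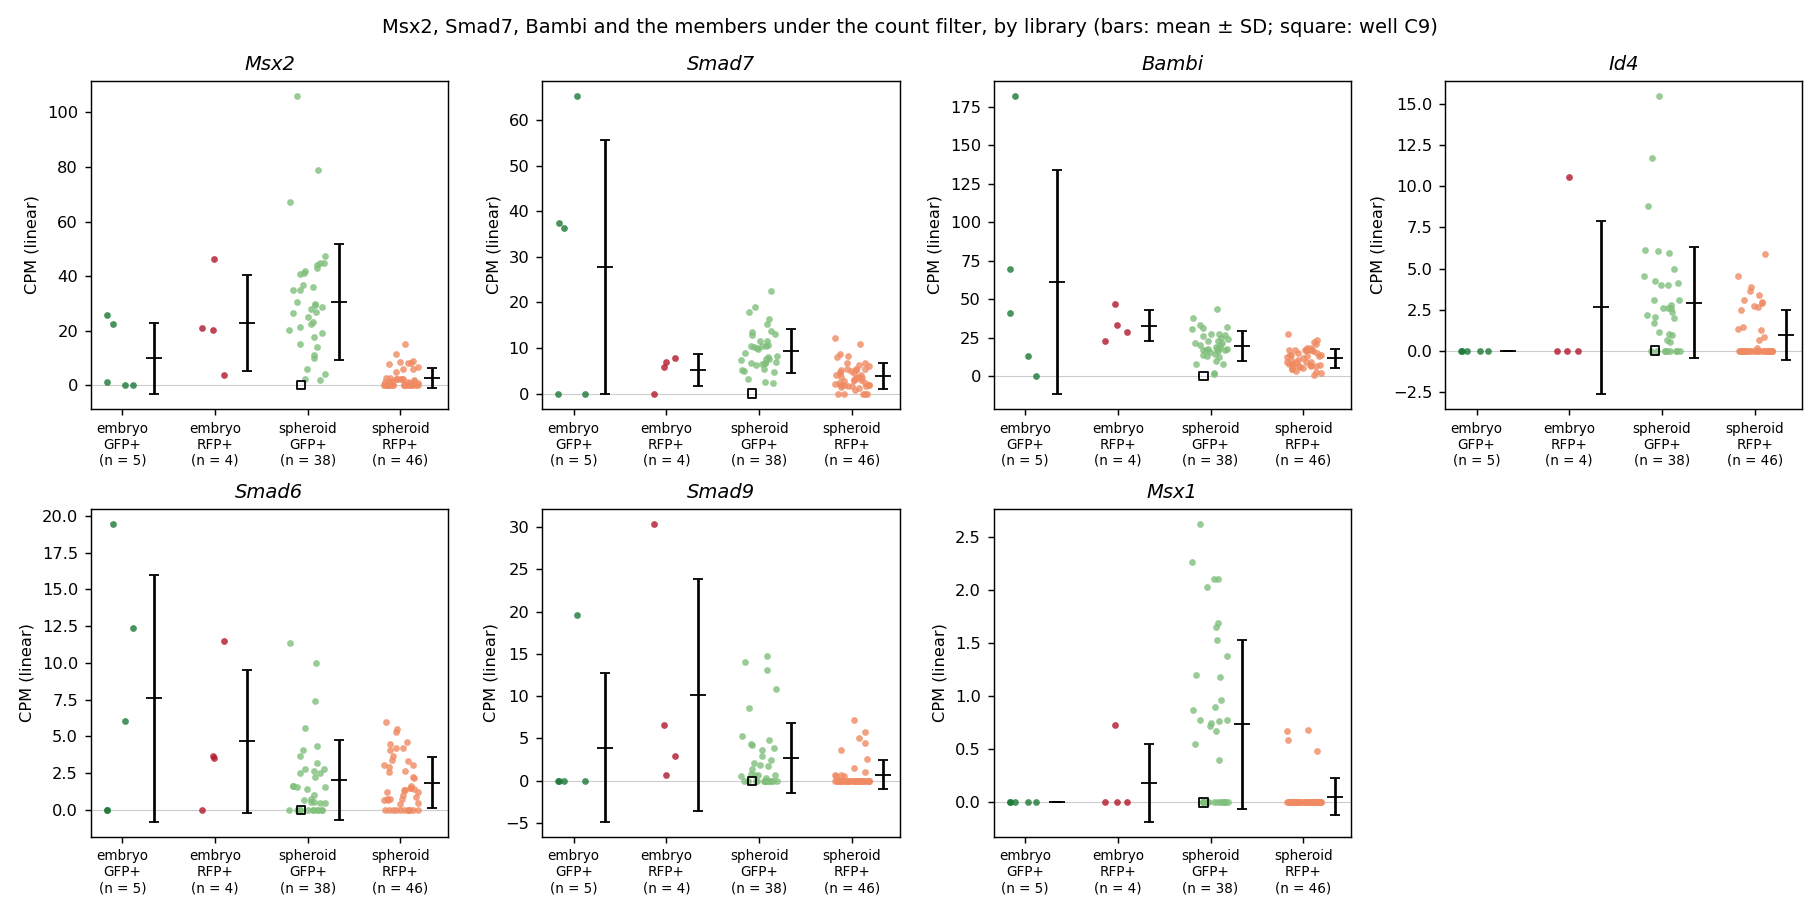
CPM of Msx2, Smad7, Bambi, Id4, Smad6, Smad9 and Msx1 (linear axes, each with its own scale) in each library of the 4 groups; points are libraries, bars give the mean ± SD and the open square is well C9. The GFP+ spheroid libraries stand above the RFP+ ones for Msx2, and embryo libraries at 0 lie beside others with clear levels for Smad7, Bambi and Msx2.

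In vivo, 6 of the 10 members passed the filter on low counts, and Id3 was called for RFP+ and Id2 for GFP+ cells as the higher side, at an adjusted p under 0.1. Over all 8503 genes tested, 6.21% were called with the higher level in RFP+ cells and 3.88% with the higher level in GFP+ cells. The median log2 difference was 0.07 over the tested members and 0.09 over all tested genes. By level alone Id2 and Id3, and with TMM scaling also Id1, had groups that did not overlap. Over all genes tested, 13.7% had all RFP+ libraries above all GFP+ libraries and 3.6% the reverse, on the TMM scale. In vitro the same number passed the filter and all of these 6 were called, 5 with the higher level in GFP+ cells and 1 in RFP+ cells, and of the 9940 genes tested 40.1% had the higher level in GFP+ cells and 37.8% in RFP+ cells. The median was -0.78 over the members and -0.02 over all tested genes. The calls for these 6 were made in each of the 9 alternative fits. Msx2 and Smad7, with medians of 28.3 and 8.57 CPM in GFP+ and 1.02 and 3.36 CPM in RFP+ libraries, passed the filter mainly through GFP+ libraries. Their direction was therefore not independent of the filter. The split of 5 and 1 and the median over the members are given as descriptions. Id4, Smad6, Smad9 and Msx1 fell below the filter in each source.

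The embryo and spheroid differences were then compared by the difference of the log2 differences over its own standard error, in vitro minus in vivo. For Msx2 it was -4.76 (SE 1.68), for Id1 -1.35 (SE 0.55) and for Id3 -1.11 (SE 0.44), each with an unadjusted p under 0.05 (0.0253, 0.0427 and 0.0413) from a t distribution over separate edgeR fits. After adjustment over 8182 genes 0 of the 6 tested members were called, where 5.68% of all genes were, and the adjusted p-values of these 3 were 0.262, 0.348 and 0.342. For Id2 the difference was 0.39 (SE 0.24, adjusted p = 0.649 from the same t distribution). A single edgeR fit over all 4 groups, which assumes 1 spread for embryo and spheroid libraries, called 5 of 9, namely Id1, Id3, Id4, Smad9 and Msx2. That fit called 54.4% of the 12655 genes it tested, so its count for the members is near its background. It also used another filter and moved the median over all genes from -0.11 to -0.48, and which of these changes made the calls was not tested.

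**Figure D4:**
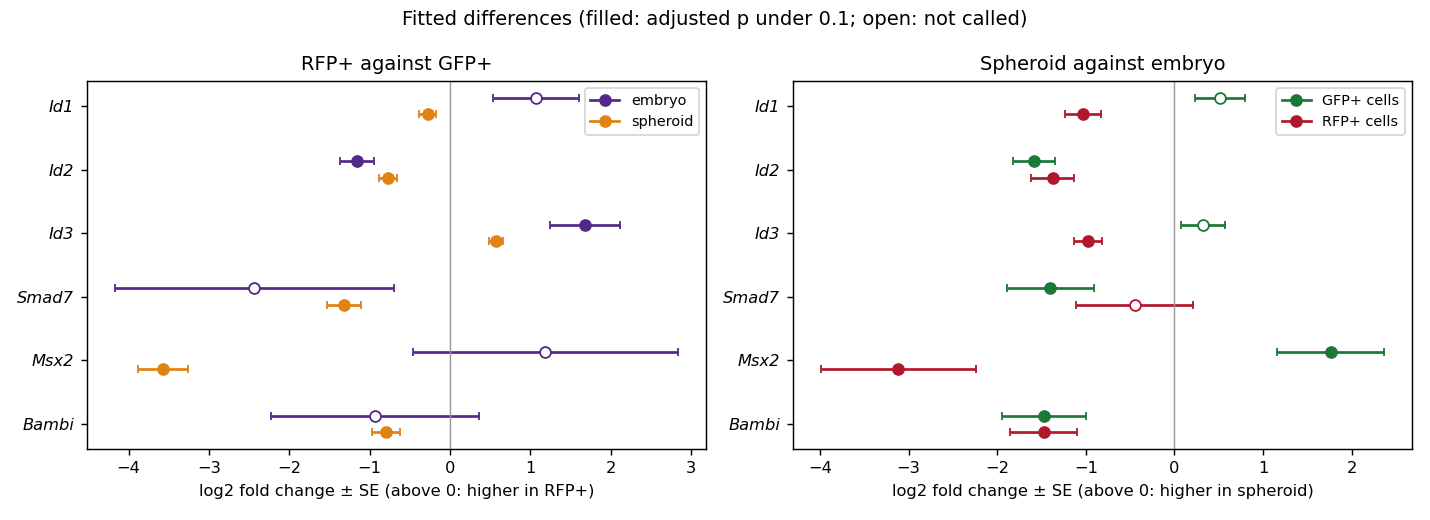
Fitted log2 fold changes with SE for the 6 members tested in each comparison, RFP+ against GFP+ cells on the left and spheroid against embryo on the right; filled points are called at an adjusted p under 0.1 and open points are not. Id2 and Id3 are called in opposite directions within embryo and within spheroids, and in RFP+ cells 5 of 6 members are called lower in spheroids.

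Spheroid cells were also set against embryo cells of the same reporter. For neither reporter do embryo and spheroid wells share a plate column, so source and column cannot be told apart. In RFP+ cells 5 of 6 tested members were lower in spheroids and 0 were higher, where 20.1% of 11147 genes were lower and 22.5% higher, and the median log2 difference was -1.20 over the members and 0.04 over all genes. Id2 was lower by a log2 difference of -1.38 (SE 0.24, edgeR adjusted p = 4.6e-07), Id1 by -1.03 (SE 0.20, adjusted p = 1.3e-05) and Id3 by -0.97 (SE 0.16, adjusted p = 2.0e-07). Msx2 was lower by -3.12 (SE 0.87, adjusted p = 0.00024), or 8.67-fold, and Bambi by -1.48 (SE 0.38, adjusted p = 0.00046). Smad7, at -0.45 (SE 0.66, adjusted p = 0.615), was not called. These 5 calls were kept in each of the 11 alternatives.

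In GFP+ cells the picture differed by member. Of 8 tested, 4 were lower and 1 was higher in spheroids, where 19.7% of 11822 genes were lower and 48.3% higher. Embryo GFP+ libraries had reads on 6189 to 8302 genes and GFP+ spheroid libraries without well C9 on 12837 to 14671. The part of this gap in the differences was not tested. The median over all genes was 0.67 with TMM scaling and 0.22 with DESeq2 size factors, so values are best read against that shift. Id2 was lower by a log2 difference of -1.58 (SE 0.24, edgeR adjusted p = 4.8e-09) and was the member called in each alternative. Id1 at 0.51 (SE 0.28, adjusted p = 0.122) and Id3 at 0.32 (SE 0.25, adjusted p = 0.272) were not called, and Id3 stood at -0.15 with DESeq2 size factors. Without embryo well D12 both passed the threshold, at 0.64 (adjusted p = 0.0770) and 0.53 (adjusted p = 0.0937), and Id1 did so without E12, at 0.71 (adjusted p = 0.0484). Msx2 was higher in spheroids by 1.77 (SE 0.60, adjusted p = 0.0195), opposite in direction to RFP+ cells, and the difference between these changes is the one tested above, with an adjusted p = 0.262. Bambi at -1.47 (SE 0.47, adjusted p = 0.0021) was no longer called without embryo well B12 (-0.44, adjusted p = 0.427). Smad7 at -1.40 (SE 0.49, adjusted p = 0.0048) was no longer called without D12 (-0.81, adjusted p = 0.146). Smad6 at -1.73 (SE 0.86, adjusted p = 0.0412) was no longer called without B12 (-0.998, adjusted p = 0.345) or C12 (-1.55, adjusted p = 0.102). With limma voom and sample weights Id2 alone of the 8 was called, in a fit that called 2312 genes over all, against 8036 in edgeR. Smad9, at -0.44 (SE 1.10, adjusted p = 0.728), was not called.

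Within a spheroid population the Id genes varied together from well to well. In 37 GFP+ libraries without well C9, Spearman's rho of log2 CPM was 0.75 for Id1 and Id3, 0.70 for Id1 and Id2 and 0.63 for Id2 and Id3, with Pearson's r of 0.69, 0.72 and 0.61. In 39 RFP+ libraries, with 7 pairs of near-identical wells summed, rho was 0.53, 0.43 and 0.44, with r of 0.56, 0.43 and 0.54. When the 2 libraries farthest from the median of the first gene were left out, r was 0.64, 0.65 and 0.58 in GFP+ and 0.49, 0.33 and 0.27 in RFP+ libraries. Msx2 ranked with the Id genes in GFP+ wells (rho 0.52 with Id1, 0.45 with Id2 and 0.48 with Id3), whereas Smad7 did not (rho -0.05, -0.11 and 0.12). Smad7 had at most 37 reads in a GFP+ library and Msx2 at most 149, and whether its fewer reads lowered the rho of Smad7 was not tested. Over the 15 pairs in GFP+ libraries the median rho was 0.38, and over the 10 pairs in RFP+ libraries, where Msx2 had too few reads, it was 0.05. These are descriptions over libraries that share a plate and differ in depth, and they carry no test.

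**Figure D5:**
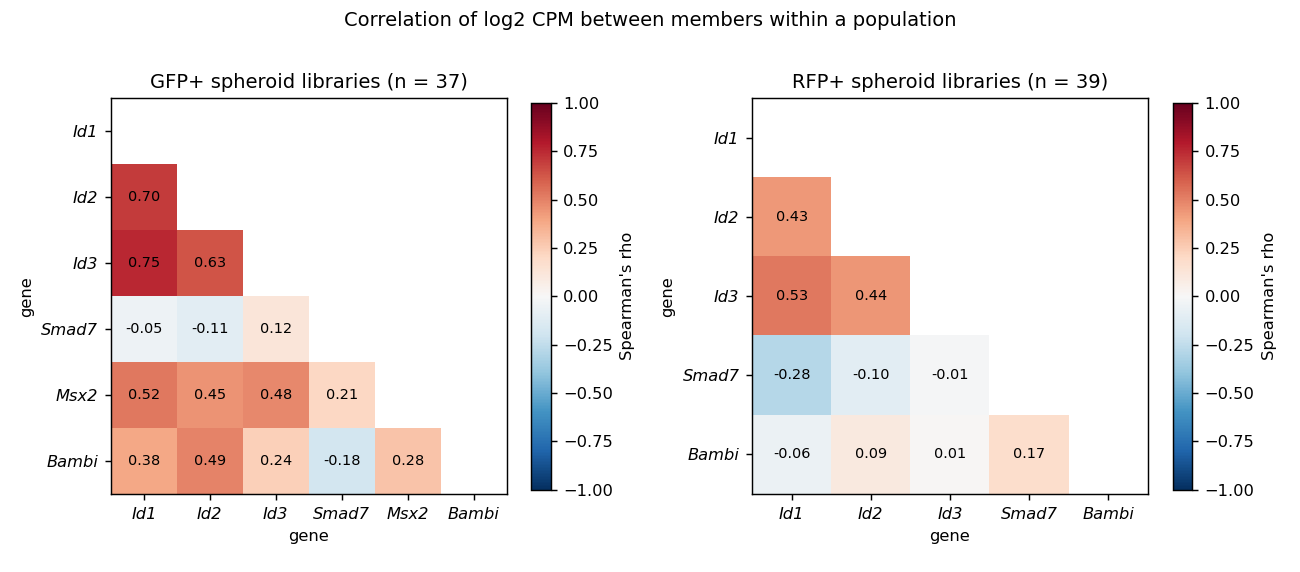
Spearman's rho of log2 CPM for each pair of members counted in at least 80% of the libraries, within 37 GFP+ spheroid libraries on the left and 39 RFP+ spheroid libraries on the right. The pairs among Id1, Id2 and Id3 have the highest values in each population, from 0.63 to 0.75 in GFP+ and from 0.43 to 0.53 in RFP+ libraries.

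Among 9939 other genes tested in vitro, the gene whose pattern over the 84 spheroid libraries was most like that of Id1, after the mean of each population was taken off, was Id3 (rho 0.67), followed by Id2 (0.58) and Hmga2 (0.50). For Id3 the order was Id1 (0.67), Hmga2 (0.59) and Id2 (0.59). For Id2 it was Meis1 (0.64), Hmga2 (0.63) and Ska2 (0.59), with Id3 in place 4 and Id1 in place 6. With the near-identical wells summed and C9 left out, the values for these 9 pairs ran from 0.48 to 0.65 over 76 libraries. There Ska2 (0.630) stood just above Meis1 (0.628) for Id2. Hmga2, a chromatin-associated protein of embryonic cells, stood among the first 3 for each of Id1, Id2 and Id3 over the 84 libraries.

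Other genes of the pathway were taken from a list of 51, of which 30 were tested in vivo and 28 in vitro. In vivo GFP+ cells had the higher level for 3 and RFP+ cells for 1, and in vitro GFP+ cells had it for 12 and RFP+ cells for 11. Over all genes tested in vivo these sides had 3.88% and 6.21%. In vitro the shares of the list, 12 and 11 of 28, are near the 40.1% and 37.8% of all genes. The ligand Bmp4 was expressed in embryo libraries at a mean of 185 ± 84.9 CPM for GFP+ cells (SD, n = 5) against 44.4 ± 29.8 CPM for RFP+ cells (n = 4), a log2 difference of -2.09 (SE 0.60, edgeR adjusted p = 0.068). It was also higher in GFP+ spheroid cells, at 42.7 ± 26.2 against 9.88 ± 9.46 CPM, with a log2 difference of -2.15 (SE 0.24, adjusted p = 1.5e-13). Bmp10, a ligand of the developing heart, was at 83.3 ± 31.0 CPM in embryo GFP+ cells and had reads in 1 of 4 embryo RFP+ libraries (log2 difference -5.38, SE 1.41, edgeR adjusted p = 0.077), and it had reads in 0 of 84 spheroid libraries. Tbx20, a T-box factor of the heart that responds to BMP, was at 588 ± 235 CPM in GFP+ and 3.63 ± 2.62 CPM in RFP+ embryo cells (log2 difference -7.32, SE 0.50, edgeR adjusted p = 2.1e-05). Zfp423, a zinc-finger partner of the BMP Smads, was at 0.248 ± 0.554 CPM in GFP+ and 19.4 ± 6.92 CPM in RFP+ embryo cells (log2 difference 6.07, SE 1.54, edgeR adjusted p = 0.018), and at 27.9 ± 11.2 and 30.7 ± 10.5 CPM in spheroids, where it was not called (adjusted p = 0.638). Of the 7 receptors 4 were tested in vivo and edgeR called 0, with 0 also at an unadjusted p under 0.05, and 5 were tested in vitro, with 1 higher in each population. Of the E proteins, the partners of Id proteins, all 3 were tested in each source, edgeR called 0 in vivo, with 0 at an unadjusted p under 0.05, and all 3 were higher in RFP+ cells in vitro. Of 12 extracellular modulators 4 were tested in vitro and all 4 were higher in RFP+ cells, while of 9 intracellular modulators 8 were tested there, with 6 higher in GFP+ and 1 in RFP+ cells.

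Within the GFP+ spheroid libraries the level of Bmp4 ranked with those of Id2 (rho 0.62), Id3 (0.59) and Id1 (0.39), and less with Bambi (0.36), Msx2 (0.14) and Smad7 (0.14). Bmp5 gave rho of 0.52, 0.52 and 0.40 with Id2, Id3 and Id1, whereas Bmp2 gave 0.07, 0.03 and 0.04. The median of Bmp2 in GFP+ spheroid libraries was only 2.88 CPM, against 41.1 CPM for Bmp4 and 21.3 CPM for Bmp5. The part of these low counts in its rho was not tested. Bmp7 went the other way, with rho of -0.33, -0.20 and -0.18. In the RFP+ libraries the values for Bmp4 with Id2, Id3 and Id1 were 0.13, 0.12 and 0.11. Bmp4 was weaker there, with a median of 7.26 CPM and reads in 42 of 46 libraries, and whether this lowered rho was not tested. In GFP+ wells the summed second heart field list is mostly Isl1, a marker of cardiac progenitors at large that was itself 2.63-fold higher in GFP+ than in RFP+ spheroid cells, and it gave rho of 0.68 with Id2, 0.53 with Id3 and 0.51 with Id1. Without Isl1, an alternative chosen after the data were seen, the same list gave 0.47, 0.45 and 0.52. The pluripotency list gave -0.20, -0.13 and -0.11, the myocardium list 0.21, 0.18 and 0.17, and the endothelium list 0.21, -0.05 and 0.03. In RFP+ wells the full second heart field list gave 0.14, -0.08 and 0.11, the list without Isl1 0.07, -0.10 and 0.05, and the pluripotency list -0.44, -0.25 and -0.15. There the myocardium list gave -0.13, -0.08 and -0.11 and the endothelium list -0.17, -0.21 and -0.15. The part of cell composition in these relations was not tested.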

How the data were processed

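Pools of sorted cells were sequenced after amplification with template-switching primers. The authors trimmed the reads (Trimmomatic 0.36), mapped them to mm10 (HISAT2 2.0.4) and counted them per gene (featureCounts 1.5.2), as named in the submitters' processing notes. The deposited values are these read counts, without normalization, and 0 columns could not be mapped to a sample. Reads carry no molecular identifiers, so limits from counts cover counting error only.

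Groups came from the sample titles. Counts were tested in R 4.3.3 with edgeR 4.0.16 (TMM, filterByExpr with minimum count 10 and minimum total 15, quasi-likelihood F-test), with Benjamini-Hochberg adjustment over all genes tested and calls at an adjusted p under 0.1. The script was tested on simulated data. DESeq2 1.42.0, limma 3.58.1 voom, other scalings, no filter, a stricter threshold, plate row, summed wells and left-out libraries were alternatives. Single members were tested on log2 CPM (prior count 2) by two-sided permutation, exact over 126 splits in vivo and with 100000 resamples in vitro, for 10 genes in each source and without adjustment. The difference of differences used 7 degrees of freedom. Exon lengths come from GENCODE M21, and promoters from RefSeq.

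The members and gene lists were chosen with earlier results of these data known. Pathway genes were named where they were called in vivo. The genes most like Id1, Id2 and Id3 are the 3 of highest Spearman's rho.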

Additional observations from a re-analysis of the deposited data

Results flagged for a closer look

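In the embryo groups the gap from the highest or lowest library to its neighbour, set against the range of the group, was large for 3 of 18 gene and group combinations. The usual chance rate of about 1 in 20 does not apply to these, because a group in which 1 library alone has reads gives the largest possible gap by construction. Id4 stood at 10.5 CPM in RFP+ well G11 and at 0 in the other 3 RFP+ wells. Smad9 stood at 19.6 CPM in GFP+ well D12 and at 0 in the other 4 GFP+ wells. Msx1 stood at 0.729 CPM, a single read, in RFP+ well F12 and at 0 in the others. In each case 1 library held all the reads of its group.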

How the results depend on the processing

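The count of called members moved by over 1.5 times in 4 settings. Leaving out each embryo library gave from 1 to 2 called members in vivo (1 without RFP+ well G11, which ends the call of Id3), from 3 to 7 in spheroid against embryo GFP+ cells (3 without B12), 5 in RFP+ cells and 0 for the difference of differences. Over all genes the fit without G11 called 613 in vivo, against 858 with all libraries. The fit without B12 called 8509 in spheroid against embryo GFP+ cells, against 8036. Limma voom with sample weights called 1 member in spheroid against embryo GFP+ cells, and over all genes it called 2312 against 8036. A single edgeR fit with an interaction term called 5 members where the separate fits called 0, and over all genes it called 6889 against 465.

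Signs turned for members that were not called. Bambi in vivo was 0.25 with voom and ran from -1.25 to 0.059 with an embryo library left out, above 0 without B12, and its difference of differences ran from -0.86 (without B12) to 0.45, and was -0.028 without RFP+ well G12. In GFP+ spheroid against embryo cells Id3 was -0.15 with DESeq2 and -0.15 with DESeq2 size factors, and Smad9 was 0.61 with voom and ran from -0.80 to 5.35, the latter without D12, where its embryo counts are then all 0 and the value depends on the prior count. For the other turns the cause was not tested. With DESeq2 and with no filter, 9 members were called in vitro in place of 6, Id4, Smad9 and Msx1 being added. Over all genes DESeq2 called 10737 and the fit with no filter 13109, against 7747 in edgeR with the filter.

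In plate columns 3 and 4, 7 pairs of RFP+ spheroid wells in the same rows were more alike than other pairs (chi-square per degree of freedom from 1.37 to 2.39 against at least 2.68). They were kept apart, and summing them left 6 members called in vitro. No paired analysis was possible because the replicate numbers are plate wells and no well is shared between groups. Depth limits Id4, Smad6, Smad9 and Msx1, which hold few reads in the embryo.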
